A study of Homo sapiens with 3 samples.

Results

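Divergent transcript genes are long noncoding RNA (lncRNA) genes that leave the start region of a neighbouring gene in the opposite direction, and their approved symbols consist of the neighbour's symbol followed by -DT. They were examined in HEK293T, a line derived from human embryonic kidney in which the large T antigen of SV40 is expressed. Members were all genes annotated as lncRNA in GENCODE whose symbol ended in -DT, and the gene named before -DT was taken as the partner. This gave 589 members among 17557 lncRNA genes and 61193 genes with values, and 588 of the members had a partner of that name in the annotation. The study mapped i-motifs (iM) and G-quadruplexes (G4), which are folded structures of C-rich and G-rich DNA, and measured RNA in the same line to relate these structures to transcription. There was 1 condition, untreated cells collected 24 h after seeding, with 3 samples that the study's methods describe as independent biological replicates. Total RNA was made into QuantSeq 3′ libraries, which read each polyadenylated RNA near its end. The labels call the molecule genomic DNA, whereas the protocols describe RNA.

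At many CpG-rich promoters, RNA polymerase II starts in both directions. The strand leading away from the gene usually stops early, at poly(A) signals that are not suppressed by U1 splice sites, and its RNA is degraded by the nuclear exosome. Some of these upstream RNAs are longer, spliced or stable enough to have been annotated as genes, and these carry the -DT symbols. None has an established protein product, and for most of them no function of the RNA has been established.

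Gene counts totalled between 6262175 and 8521624 per library, so that 3 counts, taken as the detection floor, corresponded to 0.352 to 0.479 CPM (counts scaled to 1000000 per library). Mitochondrial genes took 9.59%, 5.70% and 25.8% of the counts in replicates 1, 2 and 3, and replicate 3 stood apart in this respect. In TPM, defined below, their shares were 22.8%, 15.4% and 44.2%. Since TPM sums to 1000000 per library, the TPM of nuclear genes is lowered most in replicate 3. Of the markers of the line, INA, a neuronal intermediate filament known from HEK293 cells, reached 38.8 ± 16.5 TPM (counts per base of transcript, rescaled to 1000000 per library; mean ± SD, n = 3), and the kidney development factor PAX2 reached 8.96 ± 3.24 TPM. NEFL, NEFM and KRT18 were listed at 0 in each library, and vimentin (VIM) had 0, 6 and 5 counts. The blood marker PTPRC, the liver marker ALB and the astrocyte marker GFAP were listed at 0. The endothelial marker PECAM1 had 0, 2 and 1 counts. Of 2 fibroblast markers, DCN had 0, 1 and 0 counts, whereas the collagen gene COL1A1 reached 24.8 ± 0.330 TPM. Genes that every cell uses were also listed at or near 0. Beta-actin (ACTB) had 1 count in each library and GAPDH and B2M had 0, whereas PPIA had 1699, 1625 and 1825. The last 300 exonic bases of the main transcripts of ACTB, GAPDH and B2M lay in 2 or more listed transcripts throughout, and those of PPIA in 1 only. Of the markers, INA, NEFL, COL1A1, DCN and PECAM1 also had this end in 1 transcript only. The share in 1 transcript was 64.3% for PTPRC and 24% for ALB, and at most 2% for PAX2, NEFM, VIM, KRT18 and GFAP. The counts were made per transcript, and the way reads in shared bases were handled is not given in the sources used here. A count at 0 therefore does not show that a gene was silent, and the share of the end found in 1 transcript is given for pairs whose members and partners are compared below.

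The starts of members and partners lay close together. Both genes of a pair are read outward from the sequence between their canonical starts, although other annotated transcripts can start within or beyond it. This sequence is printed here, in the direction of the divergent transcript, for the 6 expressed pairs within 250 bases that had the highest member counts. Positions are in GRCh38. They are chr2:74833988-74834126 on the minus strand for HK2-DT, chr5:36876658-36876768 (minus) for NIPBL-DT, chr22:46762565-46762649 (minus) for TBC1D22A-DT, chr22:26512474-26512502 (plus) for TFIP11-DT, chr13:100088951-100089092 (minus) for PCCA-DT and chr4:1249131-1249220 (plus) for CTBP1-DT. Capitals mark, on either strand, the letters CCAAT (a box bound by NF-Y), CCGGAAG (a site of ETS factors), GGGCGG (a box bound by SP1), GCATGCGC (core of the NRF1 site) and TATAAA (a core promoter element). These letters were chosen after the sequences had been seen.
HK2-DT: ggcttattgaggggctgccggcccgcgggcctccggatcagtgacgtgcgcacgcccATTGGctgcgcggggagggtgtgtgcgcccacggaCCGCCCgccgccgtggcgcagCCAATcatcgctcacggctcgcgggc
NIPBL-DT: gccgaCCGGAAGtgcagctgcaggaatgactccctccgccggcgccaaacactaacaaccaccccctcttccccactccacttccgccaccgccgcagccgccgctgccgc
TBC1D22A-DT: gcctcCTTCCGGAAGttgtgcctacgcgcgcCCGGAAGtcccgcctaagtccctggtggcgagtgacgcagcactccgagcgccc
TFIP11-DT: accgtggccggcgcgccggaaatgacgtt
PCCA-DT: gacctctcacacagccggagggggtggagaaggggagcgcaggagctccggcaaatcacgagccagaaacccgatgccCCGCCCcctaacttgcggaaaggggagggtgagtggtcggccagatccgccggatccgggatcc
CTBP1-DT: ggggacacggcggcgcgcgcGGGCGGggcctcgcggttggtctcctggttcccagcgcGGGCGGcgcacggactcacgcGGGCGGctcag

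All 6 pieces were rich in G and C, from 66.9% in PCCA-DT to 81.1% in CTBP1-DT, and none held TATAAA. The ratio of observed to expected CG pairs ran from 0.699 in PCCA-DT to 1.76 in TFIP11-DT. HK2-DT and its partner shared 2 CCAAT boxes in opposite orientations and a GGGCGG box, TBC1D22A-DT had 3 CCGGAAG sites, 2 of them overlapping, and CTBP1-DT had 3 GGGCGG boxes. In the whole set, within 250 bases before to 50 bases after the start, GGGCGG was found at 69.8% of member starts, against 61.4% of protein-coding starts, 15.1% of starts of intergenic LINC genes and 29.96% of all starts. CCGGAAG was found at 17.8% of member starts, at 14.1% of protein-coding starts and at 6.73% of all starts. GCATGCGC was found at 5.77%, 4.28% and 2.11%, in the same order. The order turned for TATAAA, with 4.07% of member starts, 9.68% of protein-coding starts and 16.8% of all starts. CCAAT was less frequent at member starts (30.4%) than over all starts (36.5%). The sets differ in base composition, and a match is a description of the letters only.

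Putative iM- or G4-forming sequences, defined here as 4 tracts of at least 3 C or G with loops of 0 to 7 bases in the same window, were present at 40.1% of member starts. The share was 36.0% at protein-coding starts, 22.9% at antisense lncRNA starts, 10.3% at LINC starts and 18.3% over all 61156 starts searched. Among expressed members it was 42.0%, and among members without any count 40.9%. Median GC content of the window was 67.7% for members, 63.7% for protein-coding genes and 47.0% for LINC genes. Stretches from 4 members named below that lie outside exons of protein-coding genes are shown, on the C-rich strand and with the C tracts in capitals. They were found at chr20:38962156-38962180 (minus strand), chr7:155003445-155003465 (minus), chr4:1249247-1249264 (minus) and chr1:109090970-109090996 (plus), in GRCh38.
DHX35-DT: CCCCgCCCCCgagCCCacgtgaCCC
PAXIP1-DT: CCCCaaggCCCCaCCCCCCCC
CTBP1-DT: CCCgCCCCgCCCCgCCCC
TMEM167B-DT: CCCCgCCCCCtCCCagCCCggCCCCCC

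The stretch of DHX35-DT was centred 57 bases before the start on the strand of the RNA, whereas those of PAXIP1-DT and CTBP1-DT were each centred 34 bases after the start on the opposite strand. In PAXIP1-DT the last run of 8 C supplied more than 1 tract. The mean GC content around the 499 close head-to-head starts was 68.7% or more in each bin from 300 to 50 bases before the start, fell to 61.2% in the bin from 50 to 100 bases after it, and was 54.3% in the bin from 250 to 300. The plot of base composition shows the same one-sided profile for the putative iM or G4 sequences, which peaked at 20.04% of starts in the bin from 100 to 50 bases before the start.

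**Figure D1:**
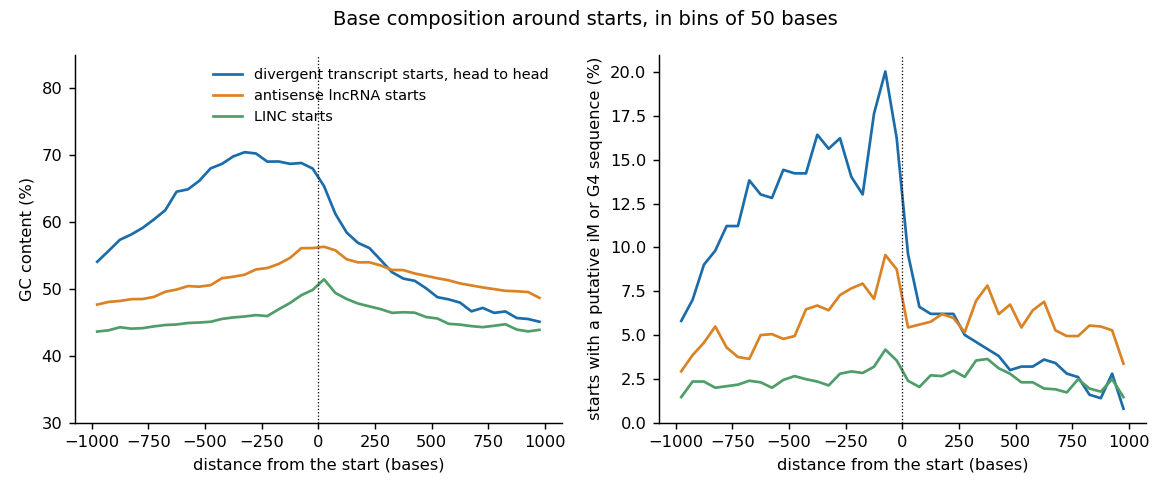
GC content (left, %) and the share of starts with a putative iM- or G4-forming sequence (right, %) in bins of 50 bases against the distance from the start, for 499 head-to-head divergent transcript starts, 1839 antisense lncRNA starts and 2252 LINC starts. The divergent transcript line is highest before the start, on the side of the partner, and falls after it, and both other lines are lower before the start. From 300 bases after the start the antisense line is the highest of the 3.

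A total of 554 members were divergent from their partner, 33 had canonical starts that passed each other, 28 of these sharing exonic bases with the partner, and 1 lay on the strand of the partner. In 499 pairs (84.7% of the members) the starts were head to head within 1 kb. In these the median distance was 175 bases (quartiles 112.5 and 308.5), and 331 pairs lay within 250 bases. By canonical starts, 18 divergent pairs were over 5 kb apart, but in 13 of them the outermost starts of any listed transcripts lay within 1 kb of each other. CELF2-DT started 555540 bases from the canonical start of CELF2, a gene for a splicing regulator, and 336036 bases from it by the outermost starts. By distance, members with a mean of at least 1 TPM made up 38.6% of pairs up to 100 bases apart, 43.1% from 100 to 200, 40.7% from 200 to 400, 38.9% from 400 to 1000 and 49.1% beyond, with overlapping 95% Wilson intervals.

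**Figure D2:**
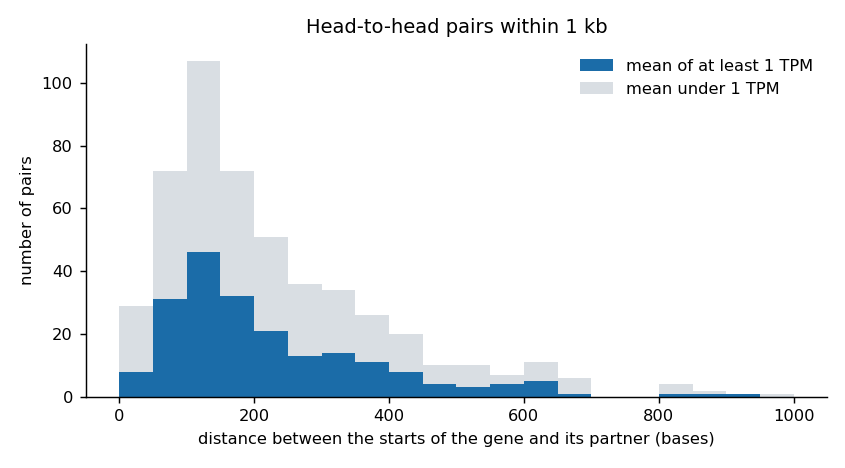
Number of head-to-head pairs against the distance between the starts of the divergent transcript gene and its partner, in bins of 50 bases up to 1 kb, with members at a mean of at least 1 TPM in blue and those below it in grey. The pairs pile up between 50 and 200 bases, with expressed members in similar proportion in the well-filled bins.

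The divergent transcripts were expressed more often than other lncRNA genes. A mean of at least 1 TPM was reached by 243 members, or 41.3% (95% Wilson interval 37.3 to 45.3). Over all genes with values 21.7% reached this level, and over lncRNA genes without a -DT symbol 14.3%. Single replicates gave 231, 230 and 258 members. Antisense lncRNA genes reached the level in 23.1% (interval 21.2 to 25.1) and LINC genes in 7.42% (6.40 to 8.57), both outside the members' interval. For protein-coding genes the share was 38.2%, within it. The intervals treat genes as independent and cover the number of genes only. Where the last 300 exonic bases lay mostly in 1 listed transcript, the share was 46.3% for 447 members and 53.2% for protein-coding genes, so that the order of these classes turned. Another 1103 lncRNA genes without a -DT symbol lay head to head within 1 kb of a protein-coding start, and 37.0% of them were expressed.

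**Figure D3:**
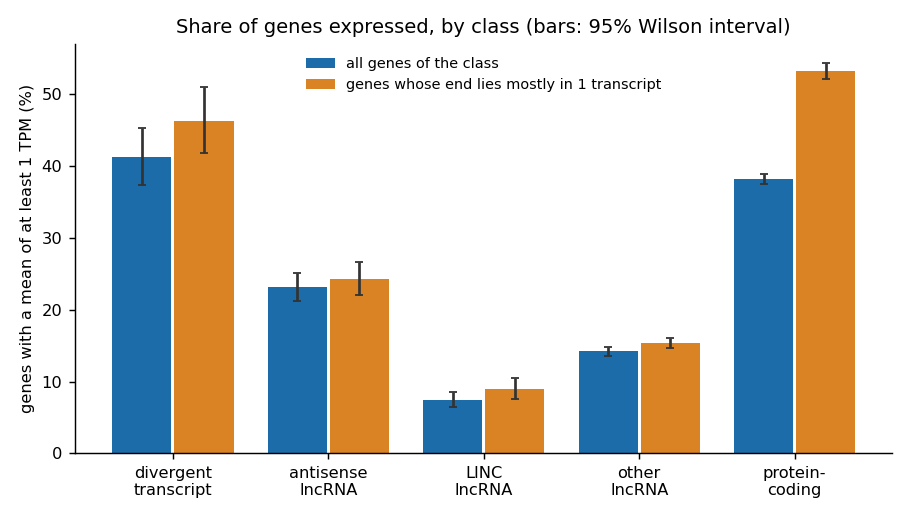
Percentage of genes with a mean of at least 1 TPM in 5 gene classes, for all genes (blue) and for genes whose last 300 exonic bases lie mostly in 1 listed transcript (orange), with 95% Wilson intervals. Divergent transcript genes stand above the other lncRNA classes in both sets, and below protein-coding genes in the second set only.

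Most members were low in level. Of the 589, 149 had no count in any library, which allows at most 3 counts in each, and 197 had counts but a mean under 1 TPM. In all, 254 stayed at or under 3 counts in every library. Among the 243 expressed members the median was 4.51 ± 0.641 TPM (SD over 3 replicates of the median), 71 members reached 10 TPM and 4 reached 100 TPM. The members together summed to 3284 ± 140 TPM, and the 10 highest held 30.9% of this. Across the expressed members, the replicates correlated with Spearman coefficients of 0.871 to 0.9001 and Pearson coefficients of 0.906 to 0.935 of log2(TPM + 1), which are correlations across genes of libraries that share their annotation and lengths. The median coefficient of variation was 32.6%, and 21.3% in the 109 members with at least 20 counts in every library.

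TBC1D22A-DT (chr22:46761893-46762564, minus strand), whose partner belongs to the TBC family of Rab GTPase-activating proteins, had 453, 375 and 733 counts, or 149, 146 and 164 TPM. HK2-DT had 160, 171 and 70.5 TPM, and its partner hexokinase 2, which starts glycolysis by phosphorylating glucose, had 1, 0 and 0 counts. PCCA-DT had 124, 121 and 62.1 TPM. Its partner, the alpha subunit of mitochondrial propionyl-CoA carboxylase, had 1.53, 3.796 and 1.77 TPM. HK2-DT and PCCA-DT were both lowest in replicate 3, whereas TBC1D22A-DT was highest there. No fold against HK2 is given, since it was at or under the floor, and HK2, TBC1D22A and PCCA each had 0% of the end in 1 transcript.

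CDC37L1-DT followed with 84.2, 82.5 and 131 TPM, and its partner, a relative of the HSP90 co-chaperone CDC37, had 26.5, 23.6 and 16.7 TPM. The member was above the partner in TPM in every replicate, while its 109, 93 and 228 counts were below the 415, 310 and 382 of CDC37L1, so that this order rests on the division by length. The end lay in 1 transcript over 61.3% for the member and 100% for the partner. TFPI2-DT had 94.1, 112 and 72.3 TPM. TFPI2, a Kunitz-type serine protease inhibitor, had only 7, 3 and 5 counts although its end lay in 1 transcript. ATP6AP1-DT (partner, an accessory subunit of the vacuolar proton pump) reached 61.9 ± 13.2 TPM and DHX35-DT (partner, a DEAH-box RNA helicase) 61.6 ± 21.8 TPM. The latter rested on 34, 60 and 76 counts over a single exon of 187 bases. DCTN6-DT and PCMTD1-DT, next to a dynactin subunit gene and a relative of protein repair methyltransferases, reached 70.5 ± 2.25 and 69.8 ± 10.4 TPM. The end of PCMTD1-DT was shared by its own transcripts throughout.

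Ranking by CPM, without dividing by length, brought in longer RNAs. NIPBL-DT, next to the gene of the cohesin loader NIPBL, had 548, 377 and 1029 counts. Its level was 23.7, 19.0 and 29.1 TPM. PAXIP1-DT, next to a gene of the DNA damage response and of histone methyltransferase complexes, had 532, 414 and 994 counts and reached 55.3 ± 9.55 TPM. TFIP11-DT, next to a gene for spliceosome disassembly, reached 45.2 ± 7.64 TPM, and RAB30-DT, next to a Golgi GTPase gene, 43.98 ± 7.56 TPM. C2orf74-DT reached 29.3 ± 5.03 TPM at 17238 bases from its partner's canonical start and 99 bases from its outermost start, and TMEM167B-DT, whose start lay 94 bases past its partner's, 24.2 ± 4.76 TPM. CTBP1-DT, next to the gene of a transcriptional corepressor, had 12.3, 16.4 and 14.6 TPM and shared 701 exonic bases with CTBP1 on the other strand. CTBP1 had 19.6, 15.8 and 4.47 TPM, and the order of the pair changed between replicates. Only 1% of the end of CTBP1 lay in 1 transcript, against 100% for the member.

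**Figure D4:**
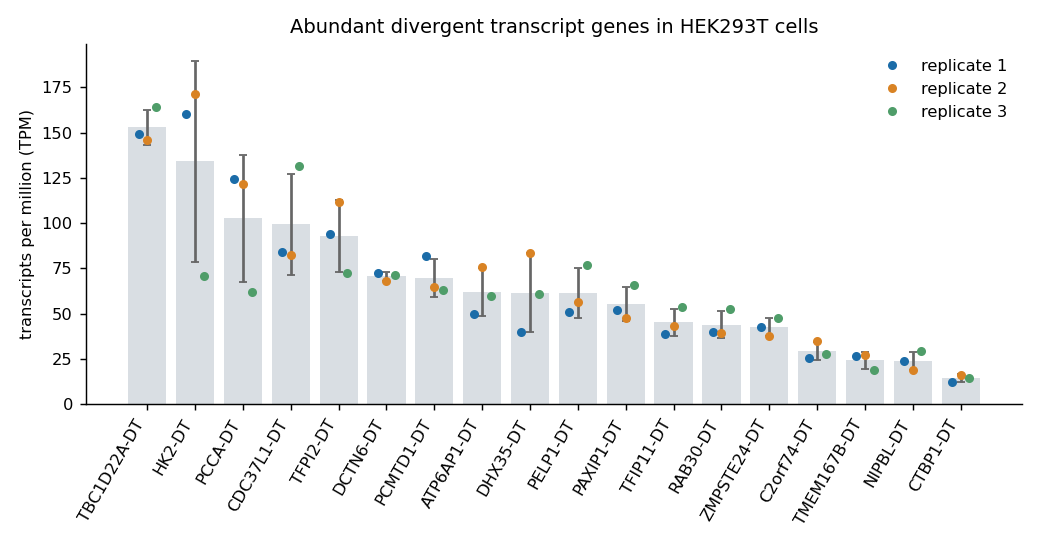
TPM of members with a high mean TPM or mean CPM, with the mean (bar), the SD over 3 replicates (line) and each replicate (points). HK2-DT, PCCA-DT, TFPI2-DT, PCMTD1-DT and TMEM167B-DT have their lowest point in replicate 3, while the others have replicate 3 as the middle or highest point.

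Since 3′ libraries read RNAs near their ends, the last 50 bases of 5 abundant members are shown, each from the listed transcript with the most counts. The poly(A) signals AATAAA or ATTAAA are in capitals, read along the RNA's strand. The GRCh38 positions are chr22:46761893-46761942 (minus) for TBC1D22A-DT, chr2:74832655-74832704 (minus) for HK2-DT, chr13:100086025-100086074 (minus) for PCCA-DT, chr9:4676600-4676649 (minus) for CDC37L1-DT and chr7:93893552-93893601 (plus) for TFPI2-DT.
TBC1D22A-DT: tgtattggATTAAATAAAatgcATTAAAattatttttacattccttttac
HK2-DT: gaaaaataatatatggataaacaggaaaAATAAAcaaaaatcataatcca
PCCA-DT: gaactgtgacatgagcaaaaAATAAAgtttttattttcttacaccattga
CDC37L1-DT: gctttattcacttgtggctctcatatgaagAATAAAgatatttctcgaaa
TFPI2-DT: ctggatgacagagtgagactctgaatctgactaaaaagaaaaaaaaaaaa

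A signal began 20 to 30 bases before the end in TBC1D22A-DT, HK2-DT, PCCA-DT and CDC37L1-DT. TFPI2-DT had none, and 17 of its last 20 bases were A in the genome. An oligo(dT) primer can also bind such a run within a longer RNA, and its part in the count of TFPI2-DT was not tested. A signal in the last 50 bases of at least 1 listed transcript was present in 73.3% of the expressed members, 68.3% of all members and 63.1% of members without counts. For the share of A in the 20 bases after the end, the highest value over the listed transcripts was taken. It was at least 60% in 32 expressed members (13.2%) and in 14 members without counts (9.40%). Genes with more listed transcripts had more chances of either. Among the named members this highest value was 70% in NIPBL-DT, 75% in CTBP1-DT and NFE2L1-DT and 90% in C2orf74-DT. It need not belong to the transcript that was counted. Single-exon canonical transcripts were found in 82 expressed members (33.7%), against 8 members without counts (5.37%) and 117 of all members (19.9%).

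Poly(A) signal letters differed between the 2 directions. Over the 499 close pairs, AATAAA occurred 0.539 times per kb in the first kb after the member's start and 0.1804 times after the partner's start. The member's side had more in 162 pairs and the partner's side in 45. The letters GTAAGT, which match the U1 splice site, occurred 0.172 and 0.142 times per kb, with more on the member's side in 62 pairs and on the partner's side in 51. Median GC content was 51.1% on the member's side and 60.6% on the partner's side, and its part in the difference was not tested.

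Members and partners were then compared within each library. Over the 243 expressed members the median log2 ratio of member to partner, each as TPM + 1, was 0.52 ± 0.30 (SD over 3 replicates), with values of 0.23, 0.32 and 0.78 in the single replicates. The member was below the partner in every replicate in 95 pairs and above it in 118, and in 30 the order changed. By CPM the median was -0.34, with the member below in 120 pairs and above in 100. The pairs were kept by the level of the member, with no such rule for the partner, which raises the member's side by construction. Over all 588 pairs, a setting chosen after the data had been seen, the median by TPM was -0.47. The balance also moved with the partner's end. The partner's last 300 exonic bases lay in 1 transcript over a median of 100% where the member was below and of 0% where it was above, and 31 of the partners below their member were listed at 0. In the 78 pairs in which the end of each gene lay mostly in 1 transcript, a set chosen after the data had been seen, the median log2 ratio was -2.04 ± 0.57. There the member was below in 58 pairs (74.4%), above in 16 and of changing order in 4. In TPM and in counts alike, the member was below in 57 of the 78 pairs and above in 8. An exact sign-flip permutation test over 3 replicates cannot give p below 0.25, so no pair was tested on its own, and an order is stated where it held in every replicate and the means differed by more than the sum of both SDs, unless said otherwise.

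**Figure D5:**
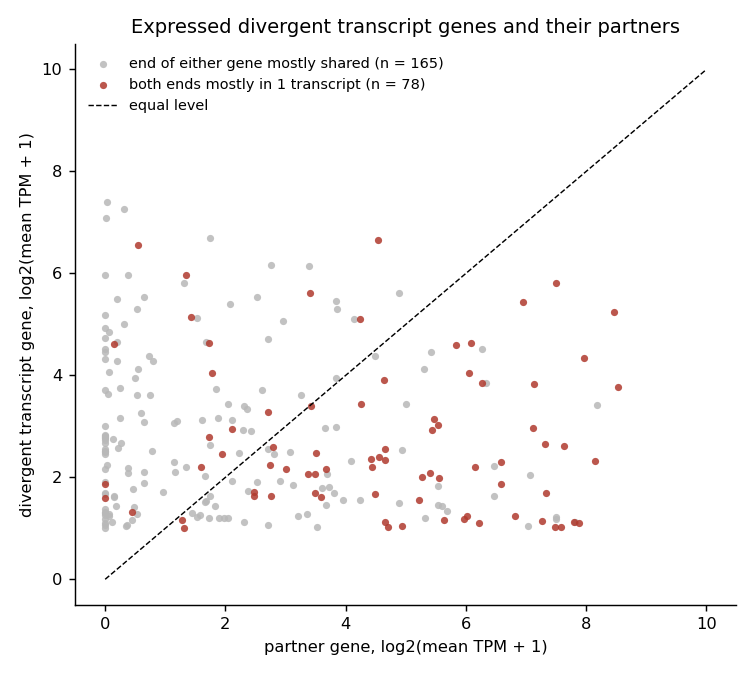
Mean level of each of the 243 expressed divergent transcript genes, as log2(TPM + 1), against that of its partner, with the dashed line marking equal levels. The 78 pairs with both ends mostly in 1 transcript (red) lie mostly below the line, while many of the other pairs (grey) stand at a partner level near 0.

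Pairs with both ends in 1 transcript and the member below included some of the higher members, named here after their values were seen except for ZMPSTE24-DT. GOLPH3-DT had 54.4, 51.7 and 58.9 TPM, against 185, 224 and 130 for GOLPH3, a phosphoinositide-binding Golgi protein. ZMPSTE24-DT had 42.5, 37.7 and 47.7 TPM, against 148, 146 and 72.2 for the protease that processes prelamin A. B4GAT1-DT had 37.1 ± 7.79 TPM and B4GAT1, a glycosyltransferase acting on dystroglycan, 350 ± 79.6. HNRNPD-DT had 19.3 ± 4.25 TPM and HNRNPD, which binds AU-rich elements in mRNA, 249 ± 95.8. The replicates of member and partner did not overlap in any of these 4 pairs. GOLPH3-DT and HNRNPD-DT share 360 and 250 exonic bases with their partners on the other strand. B4GAT1-DT overlaps opposite-strand exons over 279 bases, none of them of its partner.

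Among the pairs with more than 3 counts for both genes in every library, 42 members stood above the partner in every replicate. Of the 10 with the highest ratio, PELP1-DT and LRRC8D-DT had both ends in 1 transcript. PELP1-DT had 50.9, 56.4 and 76.9 TPM, 40.2-fold above the 1.73, 1.69 and 1.15 TPM of PELP1, a nuclear receptor coregulator, and shares 108 exonic bases with it. LRRC8D-DT had 22.5, 40.5 and 39.5 TPM, 20.4-fold above LRRC8D, a subunit of the volume-regulated anion channel, with 1.73, 1.06 and 2.24 TPM. NIPBL-DT was 10.4-fold above NIPBL, which had 2.90, 2.25 and 1.76 TPM with its end in 1 transcript. In these 3 pairs the member also had more counts than the partner in every library. The folds rest in part on the division by length. By mean CPM, PELP1-DT stood at 20.1 against 5.18 for its partner, LRRC8D-DT at 16.3 against 4.63 and NIPBL-DT at 86.3 against 15.4, which are smaller ratios.

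In the other 8 pairs of the 10, at most 36.3% of the partner's end lay in 1 transcript, and the ends of PGLS-DT and GPR155-DT themselves did so over 35.3% and 20.3% only. These were PCCA-DT (43.3-fold), PAXIP1-DT (37.6), PGLS-DT (30.6), GPR155-DT (25.4), KDM7A-DT (25.4), SF1-DT (18.0), RBM33-DT (12.8) and DCTN6-DT (12.2). Their partners include an enzyme of the pentose phosphate pathway (PGLS), a lysosomal cholesterol sensor (GPR155), a histone demethylase (KDM7A) and the protein that recognises the intron branch point (SF1). The SF1-DT levels were 32.2, 36.4 and 32.8 TPM and the KDM7A-DT levels 14.9, 19.9 and 20.7 TPM. These folds compare a counted member with a partner whose end is mostly shared.

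CEBPA-DT, chosen after its values were seen, was a pair with an almost unlisted partner whose end was not shared. It had 23.8, 23.3 and 23.9 TPM, while CEBPA, a transcription factor of myeloid, fat and liver cells, had 0, 2 and 2 counts with its end in 1 transcript throughout. No fold is given.

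Of the 587 partner genes, 338 (57.6%) had a mean of at least 1 TPM, against 37.6% of the 19339 other protein-coding genes. Members were expressed in 32.7% of cases where the partner was listed at 0, in 32.2% for partners under 1 TPM, 48.6% from 1 to 10 TPM, 44.8% from 10 to 50 TPM and 51.4% at 50 TPM and over. Where the partner's end lay mostly in 1 transcript the shares were 16.7%, 22.2%, 38.6%, 42.7% and 50.8%, the first from 12 members. Across all 588 pairs the level of the member rose weakly with that of the partner, with a Spearman coefficient of 0.148. It was 0.174 across the 177 pairs with both ends mostly in 1 transcript. Across the 162 pairs with both genes expressed no such rise was seen, with a coefficient of -0.09. These are correlations across pairs measured in the same libraries.

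Grouping the members by the symbol of the partner gave groups of 8 to 26. Of members next to zinc finger genes, 10 of 26 were expressed, of those next to ubiquitin pathway genes 7 of 17, and of those next to RNA processing genes 4 of 11. Translation genes, including the aminoacyl-tRNA synthetases GARS1 and TARS1 and the kinase EIF2AK3, had 5 of 8 and mitochondrial genes 3 of 10. Cell cycle and genome maintenance genes had 7 of 11, including CDC37L1-DT, which was placed there by its prefix only. Developmental transcription factor genes had 4 of 10, including PAXIP1-DT, although PAXIP1 is not a PAX factor. All are set beside 243 of 589 members, and with so few per group no difference from this is stated.

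Replicate 3 differed from the others in the members as in its mitochondrial share. After TPM was rescaled without mitochondrial genes, 91 of the 109 members with at least 20 counts in every library (83.5%) were higher in replicate 3 than the mean of replicates 1 and 2, with a median log2 difference of 0.50. The share was 75.1% for antisense lncRNA genes, 80.3% for LINC genes and 49.4% for protein-coding genes. HK2-DT (-0.69) and PCCA-DT (-0.45) went the other way. The most variable expressed members were taken from those with at least 50 counts in some library. The 3 highest were NFE2L1-DT with 10, 12 and 52 counts, RANBP3-DT with 13, 10 and 53, and H2AZ2-DT with 20, 8 and 50. Each reached 50 counts only in replicate 3, the deepest library. Their being highest there thus follows from the rule and says nothing further about replicate 3. Their partners are a transcription factor for proteasome genes, a Ran-binding nuclear export cofactor and a histone H2A.Z gene. H2AZ2-DT was below H2AZ2 (21.8 ± 13.1 against 75.9 ± 21.5 TPM) in every replicate, with 43.1% of its own end and 100% of its partner's in 1 transcript. What set replicate 3 apart was not tested.

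Other annotated genes cover some of the same bases. Exonic overlap with another gene was found for 217 of the 589 members, on the opposite strand for 206, with the partner for 122, and for 85 of the 243 expressed members. Reads from both strands cannot be told apart where counting did not use strand, and whether it did is not given in the sources used here. Leaving out all members with such overlap, 158 of 372 (42.5%) were expressed.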

How the data were processed

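The authors made 1 table per sample, with counts per transcript, transcript length in bases and TPM. The submitters' processing notes name Trimmomatic 0.38.0, HISAT2 2.2.1, featureCounts 2.2.1 and the hg38 build. The strand, overlap and multi-mapping settings are not given in the sources used here. The deposited TPM values equal the deposited counts divided by transcript length and rescaled to 1000000 per library.

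Transcript IDs without version were matched to GENCODE 44 (223558 of 247541, 2076 of them of members), and counts and TPM were summed per gene. Starts and ends are those of the Ensembl canonical transcripts, with sequence from GRCh38, with 2 exceptions. The printed 3′ ends are those of the listed transcript with the most counts. The shares of poly(A) signals and of A after the end cover every listed transcript of a member. A gene at a mean of at least 1 TPM was called expressed. Ratios used log2(TPM + 1). Shares carry 95% Wilson intervals. Python 3.11.15, pandas 2.3.3, scipy 1.17.1, pysam 0.24.0 and matplotlib 3.10.9 were used, and the steps were checked on simulated data.

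There was 1 condition with 3 replicates, so no conditions were compared and no test across genes was made. Named genes were the 12 highest members by mean TPM, the 12 highest by mean CPM (counts scaled to 1000000 per library), up to 10 members above the partner with more than 3 counts for both genes in every library (by the ratio), the 6 highest close pairs, and the 3 most variable members with at least 50 counts in 1 library. Genes named outside this rule are marked in the text, and some items are not reported here. The members, lists and rules were chosen with earlier results of these data known. Intervals cover the number of genes and floors cover counting error only.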

Additional observations from a re-analysis of the deposited data

How the results depend on the processing

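Of 38 alternatives to the main values, 23 stayed near the main value, 8 moved the value further and 7 turned the sign. Near meant within 1.5 times the main count, within the replicate SD of the main ratio, or within the 95% Wilson interval of the main share of starts. Counts were compared as such, although some alternatives start from fewer or more genes or pairs. The 243 expressed members became 440 with a mean above 0 TPM, 71 at 10 TPM or more and 158 without members that overlap other exons, and 612 when the 1604 lncRNA genes of any symbol head to head within 1 kb were taken. Without single replicates they were 224 to 251. The median log2 ratio of 0.52 turned to -0.31 with both genes above 0 TPM, -0.85 with both above 3 counts in every library, -0.34 by CPM, -0.46 without a pseudocount, and, in settings chosen after seeing the data, -2.04 with both ends mostly in 1 transcript (-3.82 by CPM) and -0.47 over all pairs. It was 0.30 for head-to-head pairs within 1 kb and 0.48 to 0.56 without single replicates. The settings with both genes above 0 TPM, both above 3 counts or no pseudocount leave out partners listed at 0 by construction. The 95 pairs with the member below became 58 of 78 with both ends mostly in 1 transcript, and 98 to 104 without single replicates, where fewer replicates have to show the order. The share of starts with a putative iM or G4 sequence became 54.3% with loops of up to 12 bases (27.1% of all starts), 96.9% with tracts of 2 (77.4% of all starts) and 79.5% within 1 kb on each side (44.6% of all starts). Protein-coding starts were nearer to the members, with 50.1%, 92.2% and 71.3% in the same order. The 499 close head-to-head pairs ranged from 417 with the outermost starts to 536 within 5 kb. No paired analysis was possible because a single condition was sampled and no groups exist to pair. Depth limits the low members: 254 were at or under 3 counts in every library.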
